A study of Mus musculus with 40 samples.

Results

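The NMDA and kainate receptor subunits were followed as 10 genes, 5 of the NMDA family (Grin1, Grin2a, Grin2b, Grin2d and Grin3a) and 5 of the kainate family (Grik1, Grik2, Grik3, Grik4 and Grik5), out of 41388 genes in the deposited counts. They were found by matching the Ensembl identifier of each row to its symbol in GENCODE M21 (GRCm38), a rule that used gene names and no measured value. All 10 were detected in all 40 libraries, with 35 counts or more, and passed the limit on low counts in every comparison. The libraries came from forebrains of mice at 21 d that carried a Cre-dependent reporter of EGFP-tagged ribosomal protein Rpl10a, with birA, at the Rosa26 locus. RBP4-TRAP mice carried in addition an Rbp4-cre transgene, which drives the tag in layer 5 pyramidal neurons of the cortex. VGAT-TRAP mice carried Cre in the Slc32a1 gene, which drives the tag in GABAergic neurons of every kind. Each line gave 5 replicates, each a pool of 2 to 3 forebrains of both sexes, and each pool gave 4 fractions. These were the whole-cell homogenate (WCH), ribosome-bound RNA captured from it through the tag (TRAP), RNA of the synaptoneurosome fraction (SNF), a preparation enriched in pinched-off synaptic endings and neurites, and ribosome-bound RNA captured from the SNF (SynapTRAP, ST). The tissue is labelled as cortex, while the study's methods describe forebrain dissection, which can include striatum.

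NMDA and kainate receptors are tetrameric cation channels gated by glutamate. An NMDA receptor needs Grin1, which binds glycine or D-serine, together with glutamate-binding Grin2 subunits that set its kinetics and its block by magnesium, and in some cells with Grin3a, which lowers calcium permeability. Grin2b dominates early in development and is joined by Grin2a as the cortex matures, while Grin2d is known from interneurons. Kainate receptors are formed by Grik1, Grik2 and Grik3, which can make channels by themselves, and by Grik4 and Grik5, high-affinity subunits that need a partner of the first group. They modulate transmitter release and excitability on both excitatory and inhibitory neurons.

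Each library held between 14259535 and 22037703 counts, of which 8950847 to 21976631 remained without the genes of mitochondria, rRNA and tRNA. Levels are given as cpm, counts per 1000000 of this remaining total, in the order of replicates 1 to 5. Most markers of each label were higher in the matching capture. All 7 GABAergic markers were higher in VGAT TRAP than in RBP4 TRAP, with summed levels of 9113 to 11562 against 314 to 714 cpm. Of 6 markers of layer 5 and glutamatergic neurons, 4 were higher in RBP4 TRAP. Bcl11b and Pcp4, which striatal neurons also express, were higher in VGAT TRAP. The summed levels of these 6 overlapped, at 1355 to 2345 cpm in RBP4 TRAP and 1518 to 1924 cpm in VGAT TRAP. All 7 markers of striatal projection neurons were higher in VGAT TRAP, at 3493 to 5264 cpm against 129.9 to 306 cpm in RBP4 TRAP. The ST libraries kept less of this identity, since the summed GABAergic level was 1159 to 4937 cpm in VGAT ST and 1313 to 2293 cpm in VGAT SNF. Replicate 3 of both lines stood apart in the synaptoneurosome fractions, with mitochondrial shares of 40.2% and 41.9% in SNF and of 15.8% and 19.0% in ST. RBP4 ST replicate 4 had the highest Slc32a1 level of its group, at 49.9 cpm. The other RBP4 ST libraries held 10.9 to 19.7 cpm and those of VGAT ST 23.3 to 51.3 cpm. Values without these libraries are given where they change a call.

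**Figure D1:**
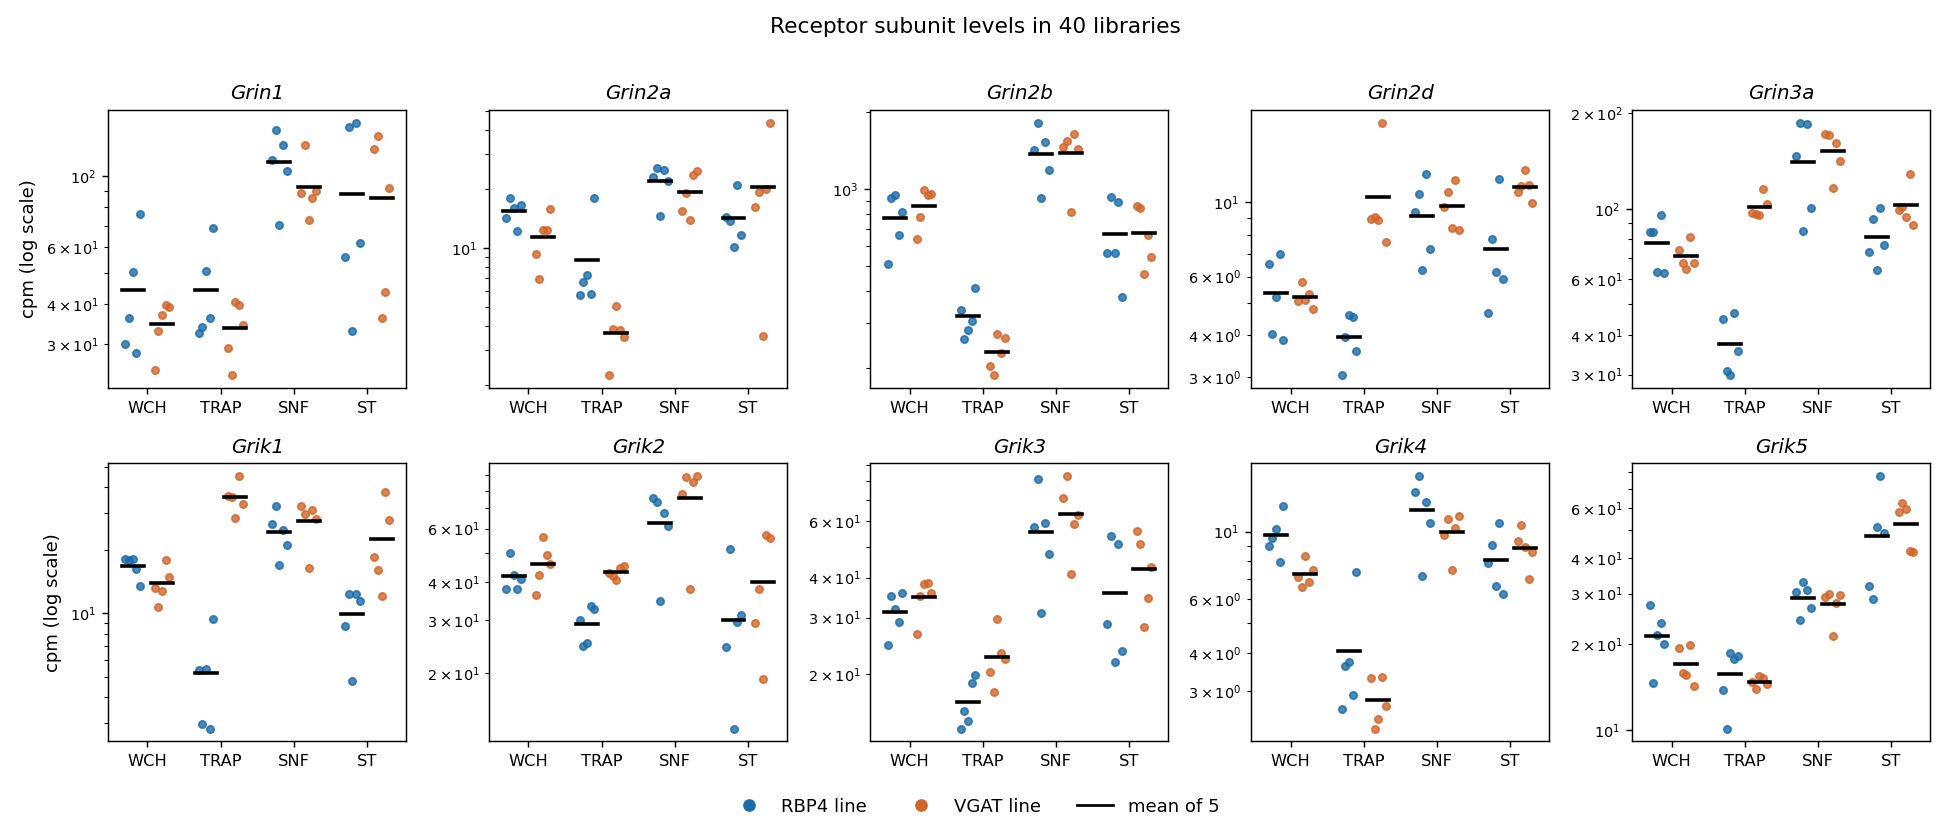
Levels of the 10 subunits in cpm (log axis) in whole-cell homogenate (WCH), TRAP, synaptoneurosome (SNF) and SynapTRAP (ST) libraries, with each point a library, each line the mean of 5 and colors marking the RBP4 and VGAT lines. In TRAP, Grin2d, Grin3a, Grik1 and Grik2 were higher in every VGAT library than in any RBP4 library and Grin2a was lower. The lines overlapped for all 10 genes in WCH, SNF and ST, and the share of all genes with or without overlap was not computed.

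The genes lie on several chromosomes, and the gene models used for counting did not cover all of them alike. The intervals that follow are those of the deposited models on GRCm38. Grin1 spans chromosome 2, 25291181 to 25319187, Grin2a chromosome 16, 9577710 to 9994921, and Grin2b chromosome 6, 135713232 to 136173511. Grin2d spans chromosome 7, 45831883 to 45870928, and Grin3a chromosome 4, 49661611 to 49845744. Among the kainate subunits, Grik1 spans chromosome 16, 87896196 to 88056176, Grik2 chromosome 10, 49099460 to 49788766, and Grik3 chromosome 4, 125490700 to 125714173. Grik4 spans chromosome 9, 42518135 to 42944493, and Grik5 chromosome 7, 25009853 to 25072369. Grik3 is on the plus strand and the other genes are on the minus strand. GENCODE M21 gives wider spans for Grin2a (9567898 to 9995560), Grin2d (45831883 to 45878378), Grik1 (87895900 to 88290265) and Grik2 (49094833 to 49788766). The deposited models held 100% of the exonic bases that GENCODE M21 lists for Grin1, Grin3a, Grik3 and Grik4 and 99.7% of those of Grin2b. The longest annotated 3′ untranslated region of Grin2b has 18868 bases. For Grin2a the deposited models held 29.5%, since 9812 bases at its 3′ end were outside the model. They held 46.7% for Grik1, 62.4% for Grik2, with 4627 bases of its 3′ end missing, 73.8% for Grik5 and 88.0% for Grin2d. For Grik1, 296 bases at the 3′ end were outside the model, and its longest annotated 3′ untranslated region has 307 bases. Because the library kit primes from the poly(A) tail, levels per length may be too low for Grin2a, Grik2 and Grik1, whose 3′ ends were cut. For Grik5 and Grin2d only 4 and 0 bases at the 3′ end were outside the models. The effect of the other missing bases of Grik1, Grik5 and Grin2d on levels per length was not tested. Differences between groups compare each gene with itself, but whether use of the uncounted 3′ ends differed between groups was not tested. Grin1 shares 1307 exonic bases with its antisense gene Grin1os and the kit does not record strand, so that reads of both cannot be told apart by strand.

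Per kilobase of exon in the deposited models, Grin2b was the most abundant subunit in 7 of the 8 groups. In WCH it reached 31.1 ± 7.39 cpm per kb in RBP4 mice and 34.7 ± 6.04 in VGAT mice (SD, n = 5), and its libraries did not overlap with those of Grin3a, the next gene in order. Grin3a, Grin1, Grik1, Grik2, Grik3 and Grik5 followed in WCH between 3.48 ± 0.512 and 6.37 ± 1.19 cpm per kb in RBP4 mice, each overlapping with its neighbor in the order, and Grin2a had 2.89 ± 0.426 cpm per kb. Grik4 and Grin2d came last, at 1.63 ± 0.261 and 0.911 ± 0.242 cpm per kb. The exception was VGAT TRAP, where Grik1 led the order with 11.4 ± 1.95 cpm per kb, before Grin2b with 9.34 ± 1.45 and Grin3a with 8.28 ± 0.691, with overlapping libraries between neighbors. This lead rests on the division by model length, of 3137 bases for Grik1 and 24773 for Grin2b. In cpm, VGAT TRAP held 35.7 ± 6.11 of Grik1 and 231 ± 36.0 of Grin2b. The paper states that its reads are strongly biased to the 3′ end, and whether division by length holds for such reads was not tested. The make-up of each family per kb, which has the same limit, differed between groups. Of the summed NMDA signal per kb, Grin2b took 69.6% to 76.4% in VGAT WCH and 34.9% to 43.2% in VGAT TRAP, while Grin3a took 10.1% to 16.3% and 30.7% to 38.9%. In RBP4 TRAP these shares were 53.9% to 61.2% for Grin2b and 9.47% to 17.5% for Grin3a. Of the kainate signal per kb, Grik1 took 41.6% to 53.6% in VGAT TRAP and 7.42% to 19.7% in RBP4 TRAP.

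The direct comparison of TRAP libraries asks which subunits were carried on ribosomes of either neuron type. Grik1, Grin3a and Grin2d were higher in VGAT TRAP and Grin2a was higher in RBP4 TRAP. These were 4 of 10 members, where 28.0% of the 16898 genes tested were called, with the limit set at an adjusted p of 0.05 (edgeR quasi-likelihood test, adjusted over all genes by Benjamini-Hochberg). In the direction of VGAT, 3 of the 10 were called, against 15.1% of all genes, and in that of RBP4 1 of 10, against 12.9%. The difference in bulk RNA cannot tell more cells with a transcript from more transcript per cell.

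The difference was widest for Grik1, the kainate subunit also called GluK1. Its level was 36.1, 35.7, 28.3, 45.1 and 33.3 cpm in VGAT TRAP and 5.36, 2.97, 5.45, 2.82 and 9.36 cpm in RBP4 TRAP. Every VGAT library lay above every RBP4 library, and the log2 fold change of RBP4 against VGAT was -2.79 (standard error, SE, 0.30, edgeR adjusted p = 1.48e-08). Grin3a, the subunit that lowers calcium flow, had a narrow range in the VGAT captures, at 96.8, 96.5, 95.5, 116 and 103 cpm, against 44.9, 30.7, 29.8, 46.7 and 35.6 cpm in RBP4 TRAP. These groups did not overlap either, with a log2 fold change of -1.44 (SE 0.15, edgeR adjusted p = 1.18e-08). For Grin2d the VGAT TRAP libraries held 8.93, 9.03, 8.86, 17.3 and 7.63 cpm and the RBP4 TRAP libraries 3.04, 3.96, 4.62, 4.55 and 3.59 cpm. The lowest VGAT library was above the highest RBP4 library at these low levels, and the log2 fold change was -1.39 (SE 0.23, edgeR adjusted p = 2.59e-05).

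Grin2a, the Grin2 subunit that rises as cortex matures, went the other way. The RBP4 TRAP libraries held 5.72, 6.68, 7.27, 5.78 and 18.0 cpm, and those of VGAT TRAP 2.23, 3.86, 5.04, 3.80 and 3.50 cpm. The groups did not overlap, with a log2 fold change of 1.23 (SE 0.39, edgeR adjusted p = 0.0165), but RBP4 TRAP replicate 5 was far above the other RBP4 captures. Without this pool the log2 fold change was 0.79 (adjusted p = 0.123), and without VGAT replicate 1 it was 1.10 (adjusted p = 0.0592), so that the call rested on single pools. The calls of Grik1, Grin3a and Grin2d passed without any single pool. GABAergic and striatal markers differed between the captures in the same direction as Grik1, Grin3a and Grin2d, as given above, and their part in these differences was not tested.

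The remaining subunits were not called between the captures. Grin1, the obligatory NMDA subunit, averaged 44.3 ± 15.4 cpm in RBP4 captures and 33.5 ± 7.06 cpm in those of VGAT (SD, n = 5), with a log2 fold change of 0.40 and a 95% interval of -0.30 to 1.10. Grin2b was 320.0 ± 59.0 and 231 ± 36.0 cpm, with a log2 fold change of 0.47 (95% interval 0.043 to 0.89, edgeR adjusted p = 0.108). Grik2, the most widely expressed of the channel-forming kainate subunits, was lower in every RBP4 TRAP library, at 24.6 to 33.3 cpm, than in any VGAT TRAP library, at 40.8 to 45.1 cpm, but its log2 fold change of -0.56 had an edgeR adjusted p of 0.0861. The log2 fold changes of Grik3, Grik4 and Grik5 were -0.47, 0.53 and 0.090, with edgeR adjusted p-values of 0.112, 0.078 and 0.794. Grik4 passed with TMM factors, at 0.58 (edgeR adjusted p = 0.0452), and without RBP4 replicate 1 or 4, at 0.65 and 0.63 (adjusted p = 0.0427 and 0.0407), while without RBP4 replicate 5 it was at 0.20 (adjusted p = 0.459).

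**Figure D2:**
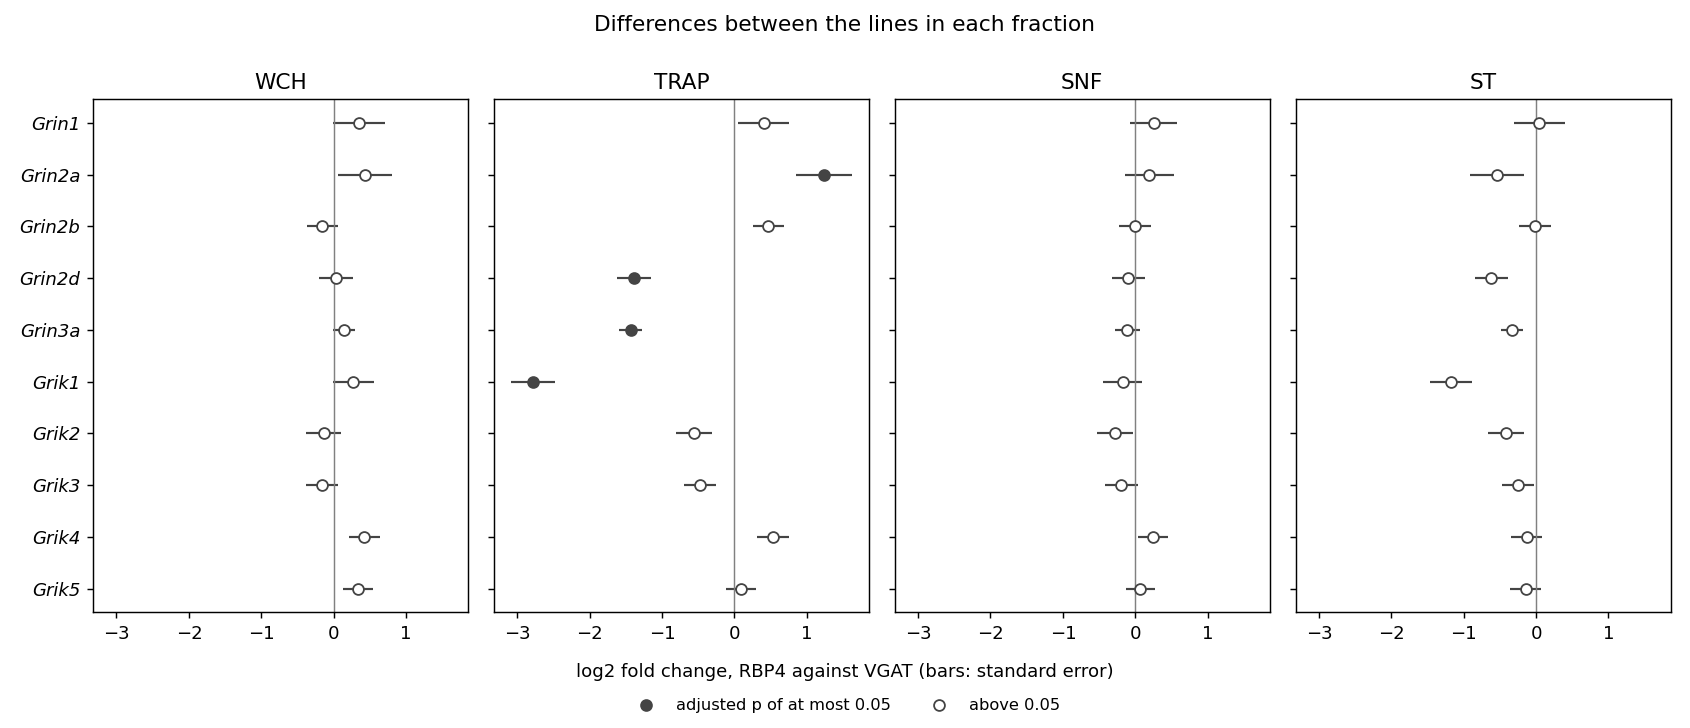
Log2 fold changes of RBP4 against VGAT for the 10 subunits in WCH, TRAP, SNF and ST (points, with standard errors as bars, filled where the adjusted p was at most 0.05). The 4 filled points, Grin2a above 0 and Grin2d, Grin3a and Grik1 below 0, are all in TRAP, and Grik1 lies at -2.79 in TRAP and -1.18 in ST.

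In WCH and SNF, which hold RNA of all cells of the tissue, the lines could serve as a background for these differences. In edgeR's quasi-likelihood test none of the 10 members was called in WCH, where 0.0118% of the genes tested were, or in SNF, where 0.0178% were, and 0 had an unadjusted p under 0.05 in either. With DESeq2 and the likelihood ratio test 0 members were called as well. The log2 fold change of Grik1 was 0.27 in WCH and -0.17 in SNF, with 95% intervals of -0.28 to 0.82 and -0.70 to 0.35. For Grin3a the values were 0.14 and -0.11, with intervals of -0.16 to 0.43 and -0.45 to 0.23. Grin2d was at 0.036 and -0.094. Grin2a was at 0.44 and 0.19, both in the direction of its difference in TRAP. The log2 ratio of Grin2b to Grin2a, tested below, differed between the lines by -0.65 in WCH and by -0.66 in TRAP. The groups of both lines overlapped for every member in these fractions, and the share of all genes that did so was not computed.

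The comparison of TRAP with WCH sets ribosome-bound RNA of the tagged neurons against total RNA of the tissue. It cannot separate the level of an RNA in these neurons from the share of it on ribosomes. In RBP4 mice 6 of the 10 members were lower in TRAP, where 31.5% of the 17043 genes tested were called lower and 8.37% higher, and none was higher. In VGAT mice 3 members were higher and 4 were lower, where 21.0% and 41.8% of 16990 genes were called. Scaling to library size put the median log2 fold change of all genes tested at -0.34 in RBP4 mice and -0.31 in VGAT mice. With TMM factors, 3296 genes were called higher and 3815 lower in RBP4 mice, in place of 1427 and 5372, and 4987 and 5530 in VGAT mice, in place of 3561 and 7106. The members called with TMM were 5 lower in RBP4 mice and 3 higher and 3 lower in VGAT mice.

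Grik1 was on opposite sides of WCH in the lines. It measured 18.1, 17.9, 18.1, 16.3 and 13.5 cpm in RBP4 WCH and 13.2, 10.7, 12.8, 17.9 and 14.9 cpm in VGAT WCH, so that every RBP4 capture was below and every VGAT capture was above the homogenates of its line. The log2 fold changes were -1.70 (SE 0.29, edgeR adjusted p = 0.00012) in RBP4 mice and 1.36 (SE 0.24, edgeR adjusted p = 6.07e-05) in VGAT mice. Grin3a measured 84.6, 84.6, 63.2, 95.8 and 62.7 cpm in RBP4 WCH and 73.9, 67.3, 64.6, 81.5 and 67.5 cpm in VGAT WCH, and its log2 fold changes were -1.06 (edgeR adjusted p = 0.000624) and 0.52 (edgeR adjusted p = 0.00111). Its groups did not overlap in either line. Grin2d rose in VGAT TRAP from 5.21 ± 0.366 to 10.4 ± 3.94 cpm (log2 fold change 0.99, edgeR adjusted p = 0.000105). In RBP4 mice its change of -0.43 was not called (edgeR adjusted p = 0.196).

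Grin2b, the major Grin2 subunit, fell in the captures of both lines. It measured 512, 919, 948, 661 and 811 cpm in RBP4 WCH and 336, 260.3, 283, 307 and 413 cpm in RBP4 TRAP. In VGAT mice it measured 636, 775, 986, 948 and 953 cpm in WCH and 205, 188, 272, 229 and 263 cpm in TRAP. All captures were below all homogenates, with log2 fold changes of -1.27 (SE 0.24, edgeR adjusted p = 0.000338) and -1.89 (SE 0.20, edgeR adjusted p = 1.01e-07). Grik4, a high-affinity kainate subunit, changed by -1.26 and -1.37 (edgeR adjusted p = 0.000769 and 4.58e-07), again without overlap. Grin2a fell by 0.82 on the log2 scale in RBP4 mice (edgeR adjusted p = 0.022) and by 1.62 in VGAT mice (edgeR adjusted p = 0.0013). The first of these was lost with TMM (-0.55, adjusted p = 0.0899) and without replicate 1, 2, 3 or 4, with adjusted p-values of 0.0582 to 0.131.

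Grik3 fell as well, by 0.94 in RBP4 mice and by 0.62 in VGAT mice on the log2 scale (edgeR adjusted p = 0.00611 and 0.00766), the second of which was lost with TMM (-0.37, adjusted p = 0.0884). Grin1 was close to its WCH level in both captures, at 0.0037 and -0.050, with 95% intervals of -0.68 to 0.68 and -0.59 to 0.48. Relative to the median of all genes these values were 0.34 and 0.26. Grik2 and Grik5 were not called in either line, with log2 fold changes of -0.52 and -0.45 in RBP4 mice and -0.094 and -0.20 in VGAT mice. In the fit with the pool as a block, Grik5 of the RBP4 line passed (-0.46, adjusted p = 0.0431). In VGAT mice the changes of Grin1, Grik2 and Grik5 turned positive with TMM, at 0.20, 0.16 and 0.051. Of 5 astrocyte and 5 oligodendrocyte markers 4 and 4 were lower in RBP4 TRAP than in WCH and all were lower in VGAT TRAP, with summed levels of 360.2 to 1565 and 341 to 4702 cpm in RBP4 TRAP against 2415 to 4821 and 5839 to 8876 cpm in RBP4 WCH, and their part in these differences was not tested.

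**Figure D3:**
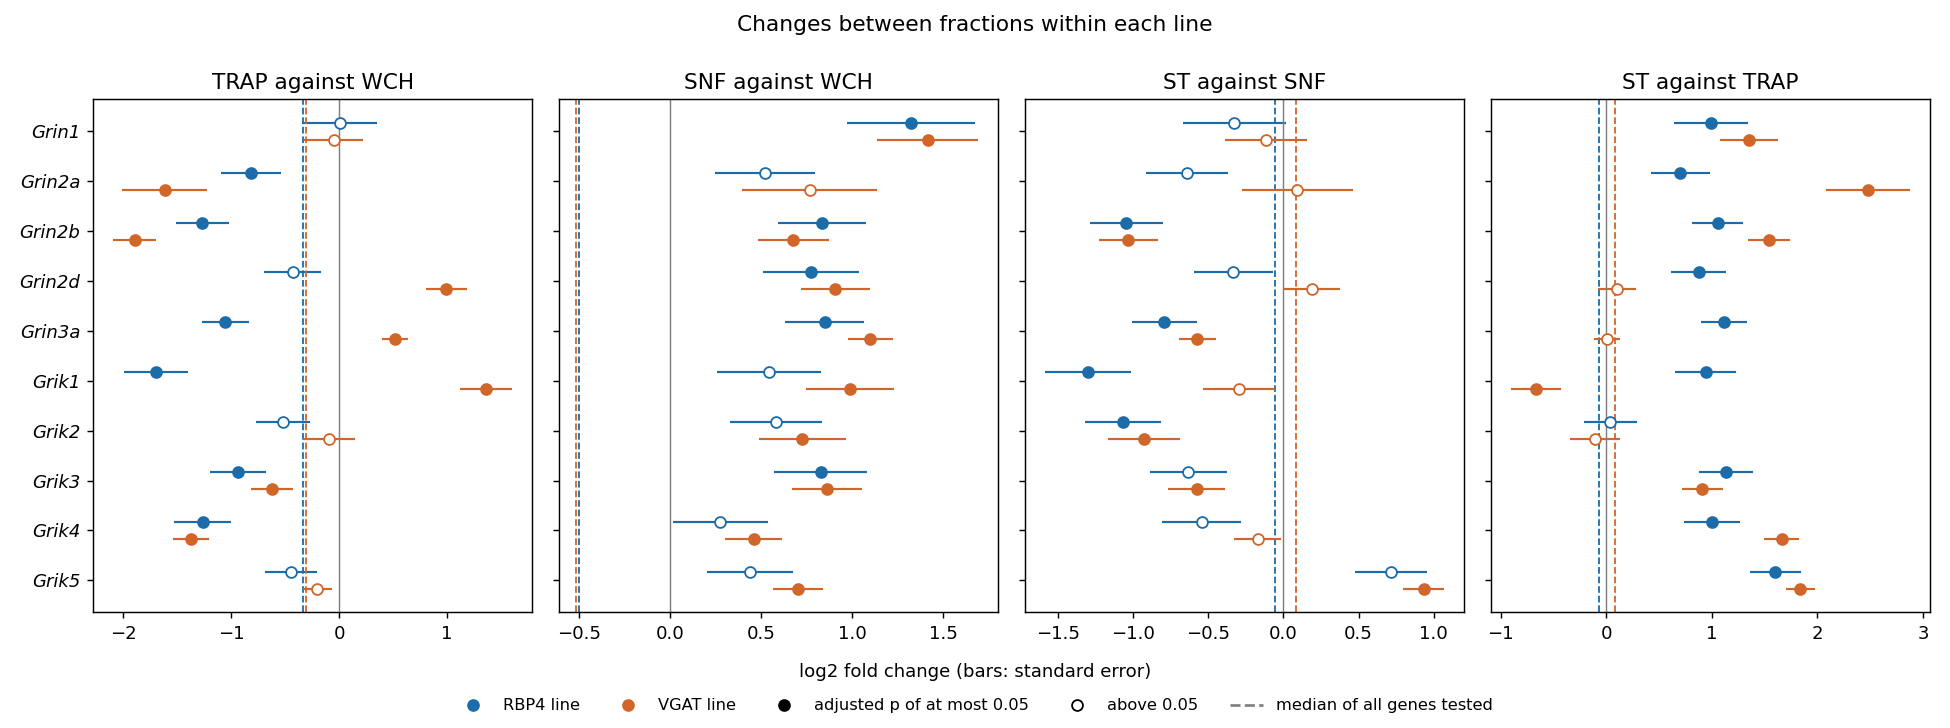
Log2 fold changes of the 10 subunits between fractions within the RBP4 and VGAT lines (points, with standard errors as bars, filled where the adjusted p was at most 0.05), with dashed lines at the median of all genes tested. All 20 changes of SNF against WCH are above 0 while the medians are -0.50 and -0.52, and Grik1, Grin3a and Grin2d of TRAP against WCH lie on opposite sides of 0 in the lines, that of Grin2d not being called in RBP4 mice.

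The comparison of SNF with WCH asks which RNAs were concentrated in the synaptoneurosome preparation, before any capture. The subunit RNAs were higher in SNF, with 5 of 10 members called higher in RBP4 mice and 9 of 10 in VGAT mice. Over all genes 13.4% and 19.3% were called higher, and 36.1% and 45.2% lower. No member was called lower, and the median change over the members was 0.68 and 0.81, against -0.50 and -0.52 over all genes tested. With TMM factors 9 members in RBP4 mice and 10 in VGAT mice were called higher, while the calls over all genes turned to 3284 higher and 3048 lower in RBP4 mice, in place of 2286 and 6161, and to 4187 and 4747 in VGAT mice, in place of 3283 and 7680. When no genes were left out of the library sizes the members called were 2 and 6. Over all genes, 1441 were then called higher and 7613 lower in RBP4 mice, and 2371 and 9134 in VGAT mice.

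Grin1 changed the most of the 10. It measured 30.0, 36.2, 50.1, 28.2 and 76.4 cpm in RBP4 WCH and 112, 139.5, 70.5, 125 and 104 cpm in RBP4 SNF, where SNF was higher in all 5 pools although the groups overlapped. In VGAT mice it measured 24.9, 32.9, 36.9, 39.7 and 39.1 cpm in WCH and 88.9, 125, 73.0, 85.4 and 89.9 cpm in SNF, without overlap. The log2 fold changes were 1.32 (SE 0.35, edgeR adjusted p = 0.00402) and 1.41 (SE 0.28, edgeR adjusted p = 0.000132). Grin3a went from 78.2 ± 14.6 to 141 ± 47.0 cpm in RBP4 mice and from 71.0 ± 6.80 to 152 ± 23.6 cpm in VGAT mice (log2 fold changes 0.85 and 1.10, edgeR adjusted p = 0.00295 and 3.62e-07). Grin2b rose in both lines, with SNF libraries at 1419, 1812, 919, 1522 and 1185 cpm in RBP4 mice and 1457, 1537, 809.8, 1642 and 1429 cpm in VGAT mice. SNF was above the WCH library of the same pool in 4 of 5 pools of each line. Replicate 3, the pools with the high mitochondrial share, held the lowest SNF values of both groups and was below its WCH library in both lines. The log2 fold changes of Grin2b were 0.83 and 0.68 (edgeR adjusted p = 0.0073 and 0.00435).

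Grin2d and Grik3 were also called in both lines, with log2 fold changes of 0.78 and 0.83 in RBP4 mice and 0.91 and 0.86 in VGAT mice. Grik1, Grik2, Grik4 and Grik5 were called in VGAT mice at 0.99, 0.73, 0.46 and 0.70 and not in RBP4 mice, at 0.54, 0.58, 0.28 and 0.44. The difference between the lines in these changes was not tested. Grin2a was called in neither, at 0.52 (edgeR adjusted p = 0.117) and 0.77 (edgeR adjusted p = 0.0759). With the pool as a block, Grik2 and Grik5 of the RBP4 line (adjusted p = 0.0431 and 0.0397) and Grin2a of the VGAT line (adjusted p = 0.048) passed. Without replicate 3, Grik2 of the RBP4 line (0.74, adjusted p = 0.00853) and Grin2a of the VGAT line (0.89, adjusted p = 0.0118) passed, and no call of either line was lost. Leaving out other pools ended single calls, those of Grin2b and Grik3 without RBP4 replicate 1 (adjusted p = 0.0559 and 0.0628), of Grin2d without RBP4 replicate 2 (0.112), of Grik2 without VGAT replicate 1 or 2 (0.0541 and 0.0679) and of Grik4 without VGAT replicate 2 or 5 (0.0732 and 0.0588), while Grin2a of the RBP4 line passed without replicate 5 (0.046). Astrocyte markers moved with the fraction, with 8329 to 23513 cpm in RBP4 SNF and 7996 to 23328 cpm in VGAT SNF, all 5 of them being called higher in both lines, and their part was not tested.

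The comparison of ST with SNF asks which RNAs of the synaptoneurosomes were higher or lower after capture through the tag. Few markers of the tagged neurons rose in this step. In RBP4 mice 0 of 6 layer 5 and glutamatergic markers were called higher and 0 lower. In VGAT mice 2 of 7 GABAergic and 0 of 7 striatal markers were called higher, and none lower. Whether RNAs higher in ST were on ribosomes of the tagged neurons was not tested. Most subunits were lower in ST or not called, and Grik5 was the exception. In RBP4 mice 4 members were lower and none was higher, where 5.46% and 5.64% of all genes were called. In VGAT mice 4 were lower and 1 was higher, where 11.2% and 16.3% were. The split over all genes in VGAT mice was 2771 higher and 1905 lower, and with TMM 1987 and 2480, with the same number of members in each direction. With no genes left out of the library sizes 1 member was lower and 1 higher in each line, while 1757 genes were called higher and 317 lower in RBP4 mice and 4726 and 917 in VGAT mice.

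Grin2b, Grin3a and Grik2 were lower in ST in both lines. For Grin2b the ST libraries held 563, 927, 565, 893 and 379.7 cpm in RBP4 mice and 855, 842, 466, 659 and 545 cpm in VGAT mice, below the SNF library of the same pool in all 10 pools. The log2 fold changes were -1.04 (SE 0.24, edgeR adjusted p = 0.00677) and -1.03 (SE 0.20, edgeR adjusted p = 0.000357). Grik2 was at 24.4, 51.3, 13.1, 29.5 and 31.1 cpm in RBP4 ST and 29.2, 38.0, 19.1, 57.2 and 56.0 cpm in VGAT ST, again below SNF in all 10 pools, with log2 fold changes of -1.06 and -0.93 (edgeR adjusted p = 0.00794 and 0.00518). Replicate 3 was the lowest Grik2 library of both ST groups. For Grin3a the changes were -0.79 and -0.57 (edgeR adjusted p = 0.0195 and 0.00126). Grik1 was lower in RBP4 ST, at 8.69, 12.4, 4.78, 12.4 and 11.4 cpm against 26.8, 32.3, 17.01, 24.9 and 21.2 cpm in SNF, without overlap (log2 fold change -1.30, edgeR adjusted p = 0.00467). In VGAT mice its change was -0.30 (edgeR adjusted p = 0.398). Grik3 was lower in VGAT ST (-0.58, adjusted p = 0.0267), and in RBP4 mice it passed only with the pool as a block (-0.66, adjusted p = 0.0415, against -0.63 and 0.113 without it). All 4 calls of the RBP4 line were lost without replicate 1, with adjusted p-values between 0.0562 and 0.122, and without replicate 4 those of Grin3a and Grik2 were (0.0723 and 0.0647). Grin3a was also lost without replicate 2 (0.0696), and in VGAT mice Grik3 was lost without replicate 2, 4 or 5 (0.0824 to 0.106).

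Grik5, the widely expressed high-affinity kainate subunit, was higher in ST than in SNF. It measured 29.2, 29.9, 21.3, 27.8 and 29.6 cpm in VGAT SNF and 57.8, 62.2, 59.3, 42.2 and 42.0 cpm in VGAT ST. Every ST library was above every SNF library, with a log2 fold change of 0.93 (SE 0.14, edgeR adjusted p = 1.80e-05). In RBP4 mice it measured 30.4, 24.2, 32.9, 31.0 and 26.7 cpm in SNF and 31.8, 28.7, 51.4, 77.5 and 48.9 cpm in ST. ST was higher in all 5 pools, but the groups overlapped and the log2 fold change of 0.72 did not pass (edgeR adjusted p = 0.0531), while it did with the pool as a block (0.65, adjusted p = 0.0189), with TMM (0.75, adjusted p = 0.0416) and without replicate 2 (adjusted p = 0.0299). Since Grik5 was also higher in VGAT SNF than in VGAT WCH, it was the only member called higher in both steps of the VGAT line, and in RBP4 mice no member was. Oligodendrocyte markers are not known from the tagged neurons. They were at 24513 to 42633 cpm in VGAT ST and 13857 to 16204 cpm in VGAT SNF. Of 5 markers 2 were higher and 1 lower there. In RBP4 mice they were at 27360 to 37404 cpm in ST and 11410 to 17221 cpm in SNF, with 2 of 5 higher and none lower. The part of these markers was not tested. Grin1, Grin2a, Grin2d and Grik4 were called in neither line, with changes between -0.64 and -0.32 in RBP4 mice and between -0.17 and 0.19 in VGAT mice.

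The comparison of ST with TRAP sets ribosome-bound RNA of the synaptoneurosomes against that of whole cells. In RBP4 mice 9 of 10 members were higher in ST, where 26.0% of all genes were called higher and 29.1% lower. In VGAT mice 6 were higher and 1 was lower, where 37.5% and 34.0% were. Grik5 rose in both lines, from 15.7 ± 3.67 to 47.7 ± 19.5 cpm and from 14.7 ± 0.602 to 52.7 ± 9.81 cpm, with no overlap and log2 fold changes of 1.60 (SE 0.24, edgeR adjusted p = 9.37e-06) and 1.84 (SE 0.14, edgeR adjusted p = 2.77e-10). Grin2b, Grik3, Grik4, Grin1 and Grin2a were called higher in both lines too. Their log2 fold changes were 1.06, 1.14, 1.0, 0.99 and 0.70 in RBP4 mice and 1.54, 0.91, 1.66, 1.35 and 2.48 in VGAT mice. For Grin1 the ST libraries were spread widely, at 55.9, 143, 33.0, 147 and 61.9 cpm in RBP4 mice and 122, 134, 36.0, 43.5 and 92.0 cpm in VGAT mice, and ST was above TRAP in 3 and 4 of 5 pools.

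The calls of the RBP4 line were not equally firm. Grin1 and Grik1 were lost without replicate 2 (adjusted p = 0.168 and 0.0763) or replicate 4 (0.164 and 0.0904). Grin2a was lost without replicate 1, 2, 3 or 4 (adjusted p = 0.0521 to 0.285). When only the ST library of replicate 4 was left out, Grin1 (0.0847) and Grin2a (0.125) were lost. The 3 subunits that were higher in VGAT TRAP than in RBP4 TRAP were not called higher in VGAT ST than in VGAT TRAP. Grik1 was lower in VGAT ST than in VGAT TRAP in all 5 pools, at 18.5, 16.1, 12.1, 37.9 and 27.9 cpm (log2 fold change -0.67, edgeR adjusted p = 0.0163), a call that was lost without replicate 1 or 2 (adjusted p = 0.0748 and 0.0793). Grin3a was at 99.4, 101, 94.1, 129 and 88.6 cpm in VGAT ST, a log2 fold change of 0.011 with a 95% interval of -0.23 to 0.25. Grin2d was at 10.7, 11.2, 12.5, 11.3 and 9.97 cpm there, a change of 0.10 with an interval of -0.25 to 0.46, which passed when replicate 4, the pool with the highest Grin2d level of VGAT TRAP, was left out (0.37, adjusted p = 0.0379). In RBP4 mice Grin3a and Grin2d rose from TRAP to ST without overlap, by 1.12 and 0.88 (edgeR adjusted p = 0.000158 and 0.00705). Grik2 was called in neither line, at 0.039 and -0.11. Markers of glia moved with the fraction, all 5 astrocyte and all 5 oligodendrocyte markers being higher in ST than in TRAP in both lines, and GABAergic markers moved in opposite directions in the lines, with 5 of 7 higher in RBP4 ST and 7 of 7 lower in VGAT ST. Their part in the subunit values was not tested.

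The direct comparison of the lines in ST asks whether the difference between the captures was also present at synaptoneurosomes. No member was called, where 0.325% of the 16898 genes tested were. In edgeR's quasi-likelihood test 3 members, Grin2d, Grin3a and Grik1, had an unadjusted p under 0.05, all lower in RBP4 mice, where 8.52% of all genes were lower and 2.95% higher at this limit. With DESeq2 and with the likelihood ratio test 1 member, Grik1, passed. Grik1 had a log2 fold change of -1.18 (SE 0.29, edgeR adjusted p = 0.0665), from the ST levels given above, and only the lowest VGAT library, replicate 3, reached into the RBP4 range. Its adjusted p was 0.0334 without VGAT replicate 3, 0.0389 without RBP4 replicate 4 and 0.0482 without RBP4 replicate 2. Without replicate 3 of both lines it was 0.142. When only RBP4 ST replicate 4 was left out, Grik1 (adjusted p = 0.037) and Grin2d (-0.86, adjusted p = 0.0479) both passed. Grin3a was 81.5 ± 15.1 cpm in RBP4 ST and 102 ± 15.6 cpm in VGAT ST, with a log2 fold change of -0.33 and a 95% interval of -0.62 to -0.034. Grin2b was at -0.016 (95% interval -0.44 to 0.41) and Grin1 at 0.045 (95% interval -0.65 to 0.74).

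Whether the line difference itself changed between TRAP and ST was tested as an interaction, which called 3 of the 10 members, where 10.8% of all genes were called. The line difference of Grik1 was less negative in ST than in TRAP by 1.61 on the log2 scale (SE 0.40, edgeR adjusted p = 0.00739), and that of Grin3a by 1.11 (SE 0.21, edgeR adjusted p = 0.000534). Both calls passed without any single pool. All 7 GABAergic and all 7 striatal markers were called in the same direction, with median interactions of 3.75 and 3.10, and their part in these values was not tested. For Grin2d the interaction was 0.77 and was not called (edgeR adjusted p = 0.132). For Grin2a, which was higher in RBP4 TRAP, it was -1.77 (edgeR adjusted p = 0.0278). VGAT ST held 16.2, 19.3, 3.56, 20.0 and 43.6 cpm of Grin2a and RBP4 ST 14.3, 13.6, 10.1, 20.8 and 11.7 cpm, the former with both the lowest and the highest library of the groups. The call of Grin2a did not pass in 6 of the 10 fits without a pool, with adjusted p-values up to 0.136, or with the replicate number as a block (0.0511). The remaining 6 members had interactions between -0.66 and 0.22.

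Ratios between subunits of the same family were compared because they do not depend on how a library is scaled. Counts of a pair of genes, with 0.5 added to each, were divided within each library, and groups were compared over 8 comparisons for each of 4 ratios, or 32 exact 2-sided permutation tests, of which the smallest possible p is 0.00794 and the smallest adjusted p was 0.0254. The ratio of Grik1 to Grik2, the channel-forming kainate subunits, passed in 6 of 8. The counted models held 46.7% of the exonic bases of Grik1 and 62.4% of those of Grik2. The level of this ratio is therefore no measure of relative transcript number. The ratio was 0.695 to 1.02 in VGAT TRAP and 0.0853 to 0.289 in RBP4 TRAP. In the homogenates it was 0.331 to 0.478 in RBP4 mice and 0.229 to 0.366 in VGAT mice. In ST it was 0.424 to 0.663 in VGAT mice and 0.242 to 0.421 in RBP4 mice, without overlap, a difference of RBP4 against VGAT of -0.71 on the log2 scale, exact permutation p = 0.00794, adjusted p = 0.0254. In TRAP the difference was -2.33 on the log2 scale, exact permutation p = 0.00794, adjusted p = 0.0254. From WCH to TRAP the log2 ratio changed by -1.30 in RBP4 mice and by 1.44 in VGAT mice (exact permutation, adjusted p = 0.0254 and 0.0254), and from TRAP to ST by 1.08 and -0.55 (exact permutation, adjusted p = 0.0462 and 0.0254). In SNF it was 0.10 (exact permutation, adjusted p = 0.62) and in WCH 0.41 (exact permutation, adjusted p = 0.102).

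Grin2d was closer to Grin2b in the GABAergic captures than in homogenate. Without correction for length, Grin2b counts were 125 to 198 times those of Grin2d in VGAT WCH and 13.2 to 34.3 times in VGAT TRAP. The log2 ratio of Grin2d to Grin2b was -4.53 ± 0.54 in VGAT TRAP and -6.33 ± 0.44 in RBP4 TRAP (SD, n = 5), a difference that passed (-1.80 on the log2 scale, exact permutation p = 0.00794, adjusted p = 0.0254). It also passed for TRAP against WCH and for ST against TRAP in VGAT mice, with differences of 2.81 and -1.35, and in ST the line difference of -0.64 did not pass (exact permutation, adjusted p = 0.102). Grik4 counts fell against those of Grik5 from WCH to TRAP in VGAT mice (-1.19 on the log2 scale, exact permutation p = 0.00794, adjusted p = 0.0254), the only one of 8 comparisons of this ratio that passed. For Grin2b to Grin2a 1 of 8 passed, the line difference in WCH, of -0.65 on the log2 scale, exact permutation p = 0.00794, adjusted p = 0.0254, and the line difference in TRAP of -0.66 did not pass (exact permutation, adjusted p = 0.102). The level of this ratio is not given, since most of the exonic bases of Grin2a were outside the counted model.

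**Figure D4:**
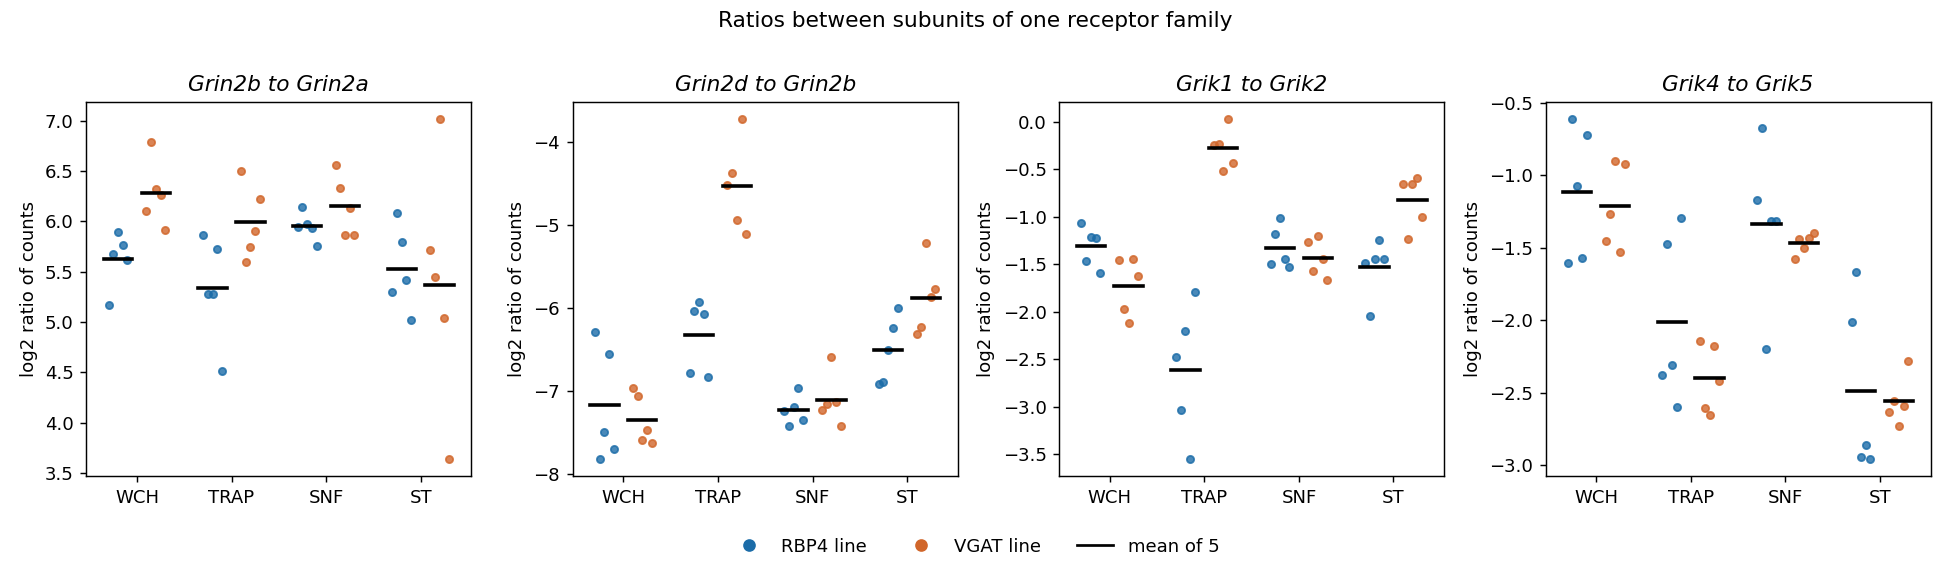
Log2 ratios of the counts of 4 pairs of subunits in each library (points; lines are means of 5, colors mark the lines) in WCH, TRAP, SNF and ST. The ratio of Grik1 to Grik2 has means of -0.28 ± 0.21 in VGAT TRAP and -2.61 ± 0.69 in RBP4 TRAP and does not overlap between the lines in TRAP or ST, and the ratio of Grin2d to Grin2b is highest in VGAT TRAP.

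Of 9 other receptor genes of the same families or complexes 8 were tested, since Grin3b, the other Grin3 subunit, had at most 3 counts in any library. In TRAP 4 of the 8 were lower in RBP4 mice and 1 was higher, where 15.1% and 12.9% of all genes were. Neto1 and Neto2, auxiliary subunits of kainate receptors, were both among the former, with log2 fold changes of -1.27 and -2.27 (edgeR adjusted p = 3.53e-06 and 2.64e-11). Neto2 measured 104, 121, 123, 129 and 120.4 cpm in VGAT TRAP against 28.0, 23.2, 29.5, 26.3 and 17.3 cpm in RBP4 TRAP, without overlap. Both were also called in the interaction (0.98 and 1.68, edgeR adjusted p = 0.0124 and 1.23e-05). Among AMPA receptor subunits, Gria1 and Gria4 were lower in RBP4 TRAP (-0.80 and -0.83), Gria2, which makes the channel impermeable to calcium, was higher (0.67, edgeR adjusted p = 0.0304) and Gria3 was not called (0.51). Grin2c and Grid1 were not called, at -0.61 and 0.18. In SNF against WCH 5 and 7 of the 8 were higher and none was lower, where 13.4% and 19.3% of all genes were higher. In ST against SNF 7 and 7 were lower and none was higher, where 5.46% and 11.2% of all genes were lower, with medians over the list of -0.93 and -0.79. Grin2c, the subunit known from cerebellar granule cells and astrocytes, was the gene not called lower in either line, at 0.35 and 0.74, and rose from 1.75 ± 1.06 cpm in VGAT TRAP to 29.2 ± 14.01 cpm in VGAT ST (4.06, edgeR adjusted p = 1.22e-08).

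Genes that anchor, move or modify these receptors were taken from lists as well. Of 11 anchoring and trafficking genes none was called higher in SNF in either line, and 5 and 6 were lower, near the 36.1% and 45.2% of all genes that were. In ST against SNF 2 and 4 were higher and none was lower, where 5.64% and 16.3% of all genes were higher. Apba1, the adaptor Mint1, rose in ST by 1.18 and 1.38 (edgeR adjusted p = 0.000109 and 1.53e-08), and Dlg4, which encodes the scaffold PSD-95, by 0.97 and 1.18 (edgeR adjusted p = 0.00136 and 7.80e-07). Lin7a and Dlg3 were the lower ones in SNF with the smallest p, at -1.08 and -0.90 in RBP4 mice and -1.24 and -1.18 in VGAT mice. Between the captures, 5 were higher in RBP4 TRAP and none was lower, where 12.9% and 15.1% of all genes were, with the smallest p for Dlg1 and Lin7b (0.81 and 0.64). Of 11 signalling and modulating genes 3 in RBP4 mice and 6 in VGAT mice were higher in ST than in SNF, among them the kinase Src (1.17 and 1.24), and none was lower, against the same 5.64% and 16.3% of all genes that were higher. Of these 11 genes 5 were higher in RBP4 TRAP than in VGAT TRAP, again beside 12.9% of all genes, with the smallest p for the kinase Ptk2b and the serine racemase Srr (0.96 and 0.72), and 2 were lower, beside 15.1%, the neuronal nitric oxide synthase Nos1 (-2.01, edgeR adjusted p = 7.01e-09) and the striatum-enriched phosphatase Ptpn5 (-1.21, edgeR adjusted p = 8.25e-08). In ST no gene tested in these lists was called between the lines.

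The genes whose levels were most like those of a member were taken as the 3 with the highest Pearson correlation of log2(cpm + 1) over the 40 libraries, among 10791 genes. For Grik1 these were Nxph1, Gpr176 and Kcnc2 (r = 0.947, 0.936 and 0.935), of which Nxph1 and Kcnc2 are known from interneurons. For Grin3a they were Man1c1, Reln and Lpl (0.945, 0.930 and 0.925), and for Grin2d Nectin2, Lgi2 and Sema4g (0.892, 0.890 and 0.889). Grin2b was followed by Atp8a1, D630045J12Rik and Plxna2 (0.974, 0.968 and 0.967), Grin1 by Emc1, Tmem201 and Syvn1 (0.947, 0.935 and 0.934), and Grin2a by Xylt1, Slc8a1 and Csmd1 (0.943, 0.896 and 0.893). Among the other kainate subunits, Grik2 was followed by Lrrtm3, Ano3 and Kcna4 (0.902, 0.900 and 0.896), Grik3 by Clcn6, Cers6 and Slc7a14 (0.948, 0.946 and 0.942), Grik4 by Fat4, Cacna1e and Flrt1 (0.932, 0.927 and 0.925), and Grik5 by Aatk, Gp1bb and Traf3 (0.961, 0.933 and 0.931). These correlations describe 40 libraries that share pools, fractions and depth and are given without a test. No member was among the 3 nearest genes of another.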

How the data were processed

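RNA of 40 libraries (2 lines, 4 fractions and 5 replicates each) was sequenced by the authors as single 50-base reads after amplification with the SMARTer Ultra Low kit. With the tools named in the submitters' processing notes, reads were aligned with STAR 2.0.4b and assigned to genes with Subread featureCounts 1.4.5, and uniquely aligned, unambiguous reads were deposited as raw counts per gene. The deposited tables hold CPM and RPKM values as well, which were not used. Counting covered the union of exons of each gene model on GRCm38, so that genes with truncated models lose reads. Groups were taken from the labels.

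Here, mitochondrial genes (37) and rRNA and tRNA genes (353) were left out, the remaining counts were scaled to their total, and genes reaching 0.5 cpm in 3 or more libraries were kept. Differences were tested with edgeR 4.0.16 in R 4.3.3 (quasi-likelihood, Benjamini-Hochberg adjustment over all genes, threshold 0.05), in fits of 20 libraries within a line and of 30 between lines (WCH, TRAP and ST), and of 40 for SNF between lines. The test was checked on simulated counts. Replicates are pools of animals, so that p-values measure the spread between pools. Alternatives were the likelihood ratio test, TMM, DESeq2 size factors, DESeq2 1.42.0, other filters, all 40 libraries in one fit, no genes left out, a replicate block, leaving out each pool, and leaving out RBP4 ST replicate 4. Leaving out replicate 3 of both lines was chosen after seeing the data. Ratios used counts with 0.5 added.

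The study's methods state that each replicate gave the 4 fractions, and within a line the same number in the labels was taken to mark the same pool. For ST against TRAP, 0 of 5 libraries in RBP4 mice and 2 of 5 in VGAT mice correlated best with their own number. Deviations from the group means of same-numbered libraries correlated with mean r between -0.009 and 0.472 over pairs of fractions within a line, and the labels tie no pool of one line to a pool of the other.

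All 10 members are named, and from each other list the 2 genes with the smallest p in each direction that passed, apart from the other receptor genes, which are named throughout. A further gene of that list is not reported here. Genes most like a member were sought among those with a mean of 5 cpm or more. The rule that finds the members uses gene names only, but this group of genes and the lists were chosen with earlier results of these data known.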

Additional observations from a re-analysis of the deposited data

Results flagged for a closer look

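In 80 groups of 5 libraries (10 genes and 8 groups), 7 held a library whose gap to its nearest neighbor was more than 0.71 of the range of the group, where chance gives about 1 in 20. In the RBP4 captures, replicate 5 was high for Grin2a, at 18.0 cpm (the next at 7.27 cpm), and for Grik4, at 7.40 cpm (the next at 3.74 cpm). In VGAT SNF, replicate 3 was low for Grin2b at 809.8 cpm, for Grik1 at 16.4 cpm, for Grik2 at 37.9 cpm and for Grik5 at 21.3 cpm, the next libraries being at 1429, 28.1, 78.2 and 27.8 cpm. This pool had a mitochondrial share of 41.9% in SNF. In VGAT TRAP, replicate 4 was high for Grin2d, at 17.3 cpm (the next at 9.03 cpm).

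The line difference in ST less that in TRAP passed the interaction test for 3 of 10 members, Grin2a (-1.77 on the log2 scale), Grin3a (1.11) and Grik1 (1.61). The value of Grin2a includes the high RBP4 TRAP replicate 5, and without this pool it was -1.27 (edgeR adjusted p = 0.125).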

How the results depend on the processing

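Of 1160 values of single genes under alternatives other than leaving out libraries, 1075 kept their direction and their side of the threshold, 24 lost and 36 gained a call, and 25 changed direction, none of them called. Of 1040 values without a pool or library, 951 were kept, 41 lost and 12 gained a call and 36 changed direction.

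Counts of members called moved most for SNF against WCH in RBP4 mice, from 5 to 9 with TMM, 10 with DESeq2 size factors, 10 with DESeq2 and 2 with no genes left out, and to 3 to 6 without a pool. Over all genes, 2286 were called higher there, against 3284 with TMM and 3546 and 3773 with DESeq2 size factors and DESeq2. With no genes left out 1441 were higher, and without a pool 1710 to 2429. For ST against SNF in RBP4 mice 4 became 6 with the replicate block, 2 with no genes left out and 0 to 4 without a pool, and in VGAT mice 5 became 2 with no genes left out. For ST between the lines 0 became 1 with the likelihood ratio test, with all 40 libraries and with DESeq2, and 0 to 2 when libraries were left out. The replicate block, by pool within a line, ended or added no other call of a member than those given above. Between the lines, same-numbered libraries deviated together with a mean r of 0.187, 0.144, 0.217 and 0.0434 in WCH, TRAP, SNF and ST, with 2 or 3 of 5 pairs over 0.1 in each, and 1 to 3 of 5 libraries correlated best with their own number.

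Changes that were not called turned direction as follows. For TRAP against WCH in VGAT mice, Grin1, Grik2 and Grik5 were at 0.20, 0.16 and 0.051 with TMM, 0.17, 0.13 and 0.030 with DESeq2 size factors and 0.17, 0.13 and 0.030 with DESeq2, and Grin1 was at 0.016 with no genes left out. In ST against SNF of VGAT mice, Grin2a was at -0.056 with TMM, -0.087 with DESeq2 size factors, -0.089 with DESeq2 and -0.015 with the replicate block, and Grin1 and Grik4 at 0.13 and 0.051 with no genes left out. For ST against TRAP with no genes left out, Grik2 was at -0.034 in RBP4 mice (-0.055 with the replicate block), and Grin2d and Grin3a at -0.0042 and -0.091 in VGAT mice. Between the lines, Grin2b was at 0.087, 0.12 and 0.12 in ST with TMM, DESeq2 size factors and DESeq2, and at 0.012 and 0.011 in SNF with TMM and with no genes left out. The cause was not tested.

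Without single pools or libraries the range included 0 for Grin1 in TRAP against WCH (-0.056 to 0.080 in RBP4 and -0.10 to 0.030 in VGAT mice) and for Grik2 there in VGAT mice (-0.17 to 0.0064). In ST against SNF of VGAT mice it was -0.29 to 0.023 for Grin1 and -0.27 to 0.27 for Grin2a. In ST against TRAP it was -0.30 to 0.18 for Grik2 in RBP4 mice, and -0.26 to 0.048 for Grik2 and -0.034 to 0.066 for Grin3a in VGAT mice. Between the lines it was -0.081 to 0.13 for Grin2d in WCH, -0.14 to 0.11 for Grin2b, -0.22 to 0.013 for Grin2d, -0.23 to 0.026 for Grin3a and -0.055 to 0.13 for Grik5 in SNF, and -0.22 to 0.26 for Grin1 and -0.17 to 0.13 for Grin2b in ST. The interactions of Grik2 and Grik3 were -0.19 to 0.30 and -0.0087 to 0.42.

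For the ratios, 0 comparisons passed without a pool (4 against 4 libraries) or with signs flipped within replicate numbers, in place of 1 for Grin2b to Grin2a, 3 for Grin2d to Grin2b, 6 for Grik1 to Grik2 and 1 for Grik4 to Grik5. The smallest exact p these designs allow is 0.0286 and 0.0625, and the smallest adjusted p was 0.0831 and 0.133. Differences of ratios between lines that changed sign without a pool were Grin2b to Grin2a in ST (-0.16 to 0.50), Grin2d to Grin2b in WCH (-0.011 to 0.41), and Grik4 to Grik5 in WCH (-0.043 to 0.16), SNF (-0.023 to 0.34) and ST (-0.13 to 0.26). The lowest counts of a member, where counting error is largest, were those of Grin2a (35 to 79) and Grik4 (38 to 63) in VGAT TRAP.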
